A study of Mus musculus with 3 samples.

Results

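Glycolysis and hypoxia genes were described in PC cells, a mouse culture read by droplet single-cell RNA sequencing. The group holds 35 genes named in a fixed list, out of 32287 features in the matrix, and all 35 were found by symbol. They were counted as UMIs, unique RNA molecules, in 14925 of 18116 cell barcodes. The barcodes left out had under 500 genes, under 1000 UMIs or a mitochondrial share above 20%. The PC cells came from mouse esophageal organoids in which floxed Trp53, the gene of the tumour suppressor p53, had been cut by adenoviral Cre carrying EGFP. Cdkn2a, which encodes inhibitors of the cell cycle, was then knocked out with CRISPR/Cas9. The cells grew in DMEM with serum, expressed Cas9 at all times, and were transfected with a barcode library. Those positive for RFP and alive were sorted after 3 passages. All cells share these alterations, the matrix has no unaltered cells to compare with, and it is treated as 1 pooled sample, so no difference below has a replicate check or a test. The oxygen level of the culture is not given in the sources used here.

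Cells meet low oxygen mainly through the HIF transcription factors. With oxygen, prolyl hydroxylases such as those made from Egln1 and Egln3 mark HIF-1alpha, the product of Hif1a, for degradation through the VHL protein. Without it, HIF binds the short sequence ACGTG or GCGTG in its target genes, and these raise glucose uptake, glycolysis, lactate export and vessel growth while restraining mitochondrial use of pyruvate. Many glycolytic enzymes are also kept on in growing and tumour cells with oxygen present, so their RNA alone does not mark hypoxia. For this reason the 13 hypoxia targets that are not glycolytic enzymes (Car9, Ndrg1, Bnip3, Bnip3l, Vegfa, Egln1, Egln3, Ankrd37, Adm, Higd1a, P4ha1, P4ha2 and Ddit4) were kept apart from the 15 glycolytic enzymes. The other 7 genes are the glucose transporter Slc2a1 and Pfkfb3 at the entry, Ldhb, the lactate carriers Slc16a1 and Slc16a3 and the pyruvate dehydrogenase kinase Pdk1 at the exit, and Hif1a itself.

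The stretches of 250 bases before the start of transcription show how the HIF core sequence is spread over these genes. Promoters came from RefSeq on GRCm38.p6, taking the most upstream start in the table, and were found for 33 of the 35 genes. Ndrg1 and Bnip3l are named only. The letters ACGTG and GCGTG were searched on both strands, and overlapping matches were counted once. At least 1 match was found in 27 of the 33 windows (81.8%), against 38.6% of the windows of 27025 symbols. At least 2 were found in 17 of the 33 (51.5%), against 13.6% of all windows. By role, 10 of 11 hypoxia targets and 10 of 15 enzymes held a match, and the windows without one belong to Vegfa, Hk1, Gpi1, Aldoa, Tpi1 and Pkm. A match is a run of letters and not a shown binding site. The windows of all symbols were not matched to those of the group in base composition or expression, and the part of these in the excess was not tested. The windows below belong to Bnip3, Egln3 and Ankrd37, which with Ndrg1 had the highest ratios between epithelial cells rich and poor in hypoxia targets, to the enzymes Pgk1 and Ldha, and to Ddit4, the target that did not follow the others. Bnip3 (ENSMUSG00000078566) has its window at chr7:138909507-138909756 on the minus strand, Egln3 (ENSMUSG00000035105) at chr12:54203875-54204124 on the minus strand and Ankrd37 (ENSMUSG00000050914) at chr8:45999851-46000100 on the minus strand. Pgk1 (ENSMUSG00000062070) has it at chrX:106186850-106187099 on the plus strand, Ldha (ENSMUSG00000063229) at chr7:46845554-46845803 on the plus strand and Ddit4 (ENSMUSG00000020108) at chr10:59951771-59952020 on the minus strand. Each is written 5′ to 3′ on the strand of its gene, ending at the base before the start, with matches on either strand in capitals.
Bnip3: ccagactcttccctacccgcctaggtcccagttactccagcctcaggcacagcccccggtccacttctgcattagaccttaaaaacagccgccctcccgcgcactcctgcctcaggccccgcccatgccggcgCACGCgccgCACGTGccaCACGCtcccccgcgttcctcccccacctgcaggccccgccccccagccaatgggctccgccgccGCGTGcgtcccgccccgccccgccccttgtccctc
Egln3: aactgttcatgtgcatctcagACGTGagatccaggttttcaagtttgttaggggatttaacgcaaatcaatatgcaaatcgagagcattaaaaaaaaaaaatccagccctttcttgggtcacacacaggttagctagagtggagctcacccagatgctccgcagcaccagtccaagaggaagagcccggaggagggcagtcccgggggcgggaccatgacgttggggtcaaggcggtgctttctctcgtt
Ankrd37: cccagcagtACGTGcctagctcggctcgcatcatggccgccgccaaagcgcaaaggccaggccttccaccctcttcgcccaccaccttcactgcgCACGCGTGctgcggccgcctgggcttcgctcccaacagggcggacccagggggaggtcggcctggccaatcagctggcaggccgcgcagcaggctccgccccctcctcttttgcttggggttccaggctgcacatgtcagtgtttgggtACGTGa
Pgk1: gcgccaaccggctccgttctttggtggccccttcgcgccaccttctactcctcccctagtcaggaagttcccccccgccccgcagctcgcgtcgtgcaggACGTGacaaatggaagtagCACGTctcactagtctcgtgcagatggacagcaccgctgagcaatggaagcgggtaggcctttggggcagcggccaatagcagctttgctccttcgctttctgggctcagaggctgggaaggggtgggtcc
Ldha: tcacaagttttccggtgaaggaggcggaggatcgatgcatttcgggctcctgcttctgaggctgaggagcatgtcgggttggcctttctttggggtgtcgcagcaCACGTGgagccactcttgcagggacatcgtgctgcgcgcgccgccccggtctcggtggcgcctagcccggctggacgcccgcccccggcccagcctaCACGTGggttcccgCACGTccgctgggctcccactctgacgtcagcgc
Ddit4: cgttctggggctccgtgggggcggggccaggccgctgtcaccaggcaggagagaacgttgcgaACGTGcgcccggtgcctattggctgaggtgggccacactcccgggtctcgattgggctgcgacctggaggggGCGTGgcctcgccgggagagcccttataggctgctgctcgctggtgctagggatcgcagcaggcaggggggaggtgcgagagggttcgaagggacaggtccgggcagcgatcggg
Bnip3 carried 4 separate matches, Ankrd37 and Ldha 3 each, Pgk1 and Ddit4 2 each and Egln3 1. Ddit4 thus held more matches than Egln3, although the 2 genes stood at opposite ends in the cells described below.

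Levels are given as CPM, UMIs of a gene per 1000000 UMIs summed over a set of cells, with exact 95% Poisson intervals that cover counting error only. Reads from the 3′ end count molecules whatever the length of the transcript, so length is no bar to setting levels of different genes side by side. Other differences between genes in how fully molecules were counted were not tested. The median kept cell held 2955 UMIs. The 35 genes together took 0.564% of all UMIs, and 29 of them reached 10 CPM, the minimum for the counts of genes below. Car9, Pfkm, Aldoc, Ldhb, Slc16a1 and Slc16a3 did not reach it.

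Over all kept cells the 15 glycolytic enzymes summed to 4359 CPM (4340 to 4378) and the 13 hypoxia targets to 977.4 CPM (968.4 to 986.6). The middle and last steps of the pathway were the most abundant. Gapdh, which oxidises glyceraldehyde 3-phosphate, stood at 1258 CPM and Ldha, the muscle-type lactate dehydrogenase subunit, at 947.3 CPM. Pgam1 stood at 569.1 CPM, Pgk1 at 335.4 CPM, Aldoa at 320.7 CPM and Pkm, the pyruvate kinase gene, at 295.5 CPM. The enzymes that commit glucose to the pathway were far lower: Hk2 at 46.1 CPM, Hk1 at 22.9 CPM, and the phosphofructokinases Pfkp, Pfkl and Pfkm at 20.3, 13.3 and 7.11 CPM.

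At the aldolase, lactate dehydrogenase and enolase steps 1 gene of the family dominated. Aldoa exceeded Aldoc, which had 5.92 CPM, and Ldha exceeded Ldhb, the heart-type subunit, which had 5.06 CPM. Eno1 stood at 240.1 CPM, while its near copy Eno1b had 3.70 CPM. How reads that match both copies were counted was not tested. Of the forms restricted to testis or muscle, Pgk2, Aldoart1 and Aldoart2 had 0 UMIs, Gapdhs 6, Pgam2 3 and Ldhc 2. Aldoa is carried by 2 gene IDs with 14568 and 5 UMIs, which were added.

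Among the hypoxia targets, Bnip3l, a mitophagy receptor, led with 181.3 CPM. Higd1a, a small mitochondrial protein, followed with 137.8 CPM and Ddit4, an inhibitor of mTORC1, with 136.3 CPM. Bnip3, the paralog of Bnip3l, stood at 88.4 CPM, the collagen prolyl hydroxylase subunits P4ha1 and P4ha2 at 79.8 and 72.9 CPM, and Egln1 at 79.1 CPM. Adm, which encodes the peptide adrenomedullin, had 62.5 CPM, Vegfa 51.6 CPM, Ndrg1 49.9 CPM, Ankrd37 24.3 CPM and Egln3 13.1 CPM. Car9, the membrane carbonic anhydrase often used as a hypoxia marker, was almost absent with 20 UMIs or 0.440 CPM. Hif1a, whose protein rather than RNA is set by oxygen, stood at 211.9 CPM.

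To compare cells of unlike depth, 13281 cells were thinned at random to 1500 UMIs each and 1644 shallower cells were left out of what follows. At this depth a cell held on average 1.5 UMIs of hypoxia targets, with a maximum of 27, and 6.59 UMIs of glycolytic enzymes, with a maximum of 32. The variance of the summed hypoxia targets was 1.60 times their mean and that of the enzymes 1.92 times. For single genes averaging 0.1 UMIs or more in a cell, the ratio of variance to mean had a median of 1.05, and 6.10% of these 2605 genes reached 1.5. No gene of the group reached 1.5 alone. The most uneven were Egln3 at 1.42, Gapdh at 1.38, Ndrg1 at 1.34, Ldha at 1.33 and Bnip3 at 1.32, of which Egln3 and Ndrg1 averaged fewer UMIs than that. Hk1 at 0.990 was the most even.

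Cells were gated by markers. Epithelial cells were those in which at least 75% of the UMIs of 7 epithelial and 10 mesenchymal genes were epithelial (Epcam, Cdh1, Krt5, Krt14, Cldn7, Perp, Dsp), and mesenchymal cells those in which at least 75% were mesenchymal (Vim, collagen genes, Zeb1, Zeb2, Dcn, Aebp1), given 3 UMIs of either kind. The 10565 epithelial cells had 1312 CPM of Epcam and 8.82 CPM of Vim, and the 873 mesenchymal cells 15 and 1394 CPM. Krt5, the keratin of basal squamous epithelium, was at 774.7 CPM in epithelial and 7.83 CPM in mesenchymal cells. A gene outside the gates, Grem1, was at 440.3 CPM in mesenchymal and 1.35 CPM in epithelial cells, while the fibroblast genes Lum and Thy1 had 0 UMIs, so the mesenchymal cells are called by their gate. Another 319 cells were mixed and 1524 had too few of these UMIs. Dividing cells, with 3 or more UMIs of 15 G2 and mitosis genes, made up 1601 of the epithelial and 44 of the mesenchymal cells. A Grem1 UMI was found in 0.190% of thinned non-dividing epithelial and 39.7% of thinned non-dividing mesenchymal cells. Of the same list outside the gates, Sparc was found in 18.9% and 89.5% (28.7% and 97.1% before thinning), and Twist1 was at 1.91 CPM in epithelial and 1.70 CPM in mesenchymal cells. The share of free RNA in these values was not tested. The 8 immune markers had 387 UMIs in all with Ms4a1 at 0, of which Cd68 gave 339. The 8 endothelial markers had 357 UMIs, of which Egfl7 gave 281, with Cdh5, Cldn5 and Emcn at 0.

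Mesenchymal cells held more RNA of hypoxia targets, and slightly more of glycolytic enzymes, than epithelial cells. The targets summed to 1467 CPM (1423 to 1511) in mesenchymal and 907.3 CPM (897.2 to 917.4) in epithelial cells, a ratio of 1.62 (1.57 to 1.67). The enzymes summed to 5325 and 4317 CPM, a ratio of 1.23 (1.21 to 1.25). The 55 genes of respiration and the TCA cycle had a ratio of 1.01. Of the 29 genes compared, 7 were at least 2-fold higher in mesenchymal cells, where 7.56% of all 8461 genes of at least 10 CPM were, and 2 were at least 2-fold lower, where 11.7% were. The median ratio was 1.56 over the 29 genes and 0.962 over all genes. With limits of 1.5-fold and 3-fold in place of 2-fold, 20 and 3 of the 29 genes passed in either direction, against 38.5% and 9.83% of all genes.

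The hypoxia targets split by gate. Ankrd37, an ankyrin repeat protein gene, was at 93.3 CPM in mesenchymal and 15.2 CPM in epithelial cells, a ratio of 6.14 (5.29 to 7.13). P4ha1, which makes collagen hydroxyproline with oxygen as a substrate, was at 230.9 and 55.4 CPM, a ratio of 4.17 (3.81 to 4.55). Vegfa, the main growth factor of vessels, was at 116.1 and 40.0 CPM, a ratio of 2.90 (2.57 to 3.27). These 3 genes had intervals well apart between the gates.

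P4ha2 and Ndrg1, a stress-induced growth regulator, lay just inside the 2-fold limit, both with a ratio of 2.01, and Bnip3 just outside it at 1.87. Without dividing cells P4ha2 had 1.97 and Ndrg1 1.94, which left 5 genes higher and 2 lower, against 7.6% and 11.6% of all genes. Adm went the other way, with 9.19 CPM in mesenchymal and 71.6 CPM in epithelial cells, a ratio of 0.128 (0.0844 to 0.187). Ddit4 did as well, at 53.1 and 149.3 CPM, a ratio of 0.356 (0.301 to 0.417). An Adm UMI was found in 9.73% of thinned non-dividing epithelial and 1.57% of thinned non-dividing mesenchymal cells (17.7% and 2.41% before thinning), and an Ankrd37 UMI in 2.41% and 11.8% (4.43% and 22.3%). For comparison, Krt17, an epithelial keratin outside the gate, gave a UMI in 80.2% and 22.1% (90.6% and 38.5%), with median depths of 3004 and 3273 UMIs in the 2 gates.

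The median ratio of the 13 enzymes compared was 1.40, and 2 of them passed 2-fold. Hk2, the inducible hexokinase, was at 89.6 CPM in mesenchymal and 38.8 CPM in epithelial cells, a ratio of 2.31 (2.01 to 2.63), and Pfkp, the platelet phosphofructokinase, had a ratio of 2.26 (1.84 to 2.76). Hk1 at 1.82, Tpi1 at 1.69, Pkm at 1.57, Pfkl at 1.52 and Gapdh at 1.40 were higher by less than 2-fold. Pgk1 at 0.981, Eno1 at 1.04, Ldha at 1.09 and Pgam1 at 0.892 stood close to 1. Below 10 CPM, Aldoc had 2.24 (1.5 to 3.27) and Pfkm 1.47 (0.935 to 2.21). Hif1a had a ratio of 1.83 (1.71 to 1.96), Slc2a1 of 1.56 and Pfkfb3 of 1.54.

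Genes under 10 CPM in all kept cells were not counted, and Slc16a3, Ldhb and Car9 among them differed most between the gates. Slc16a3, the lactate exporter MCT4, had 34.1 CPM in mesenchymal and 5.45 CPM in epithelial cells, a ratio of 6.24 (4.85 to 8.01). Ldhb had 20.4 and 2.43 CPM, a ratio of 8.40 (5.92 to 11.8). Car9 had 7 UMIs in mesenchymal and 4 in the far more numerous epithelial cells, a ratio of 20.3 with a wide interval of 5.17 to 94.7. Slc16a1, the carrier MCT1, had a ratio of 1.26 (0.846 to 1.82).

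**Figure D1:**
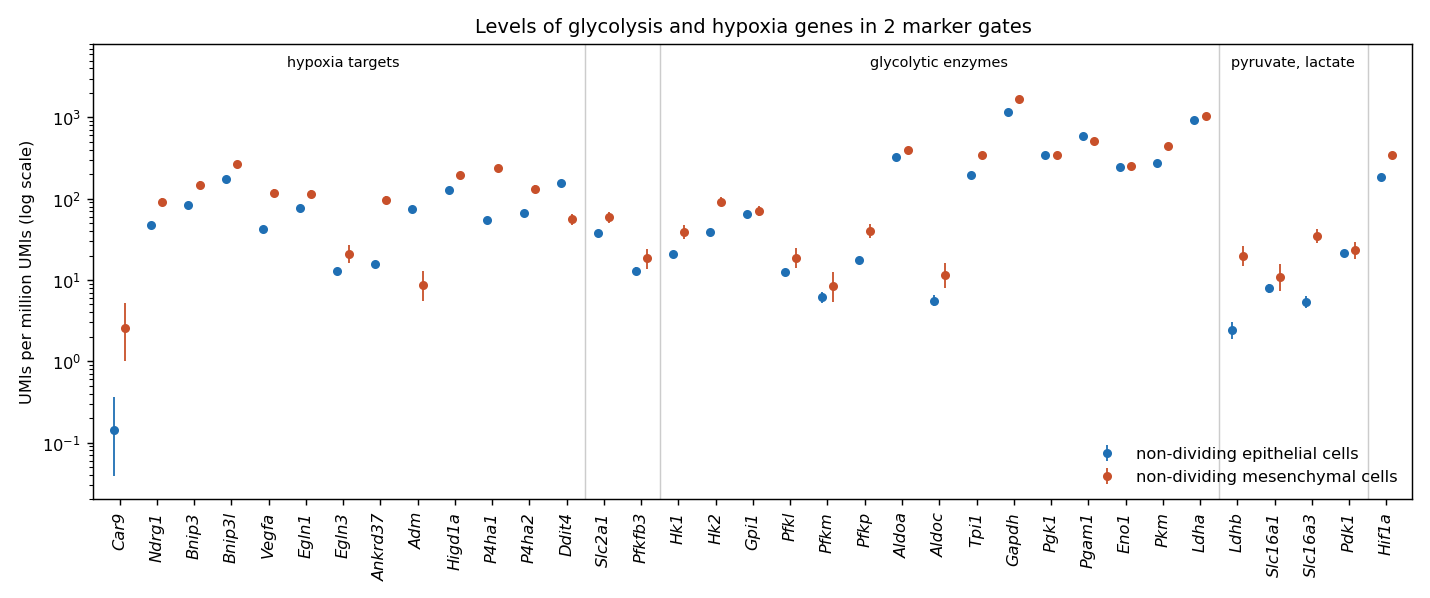
Level of each of the 35 genes in CPM (log axis) in non-dividing epithelial and non-dividing mesenchymal cells, ordered by role. Points are sums over cells, bars are exact 95% Poisson intervals, and the uptake genes and Hif1a stand between and after the named blocks. Ankrd37, P4ha1 and Vegfa stand higher in mesenchymal cells and Adm and Ddit4 lower, while Pgk1, Pgam1, Eno1 and Ldha nearly coincide.

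The wider hypoxia pathway also differed between the gates. Of 36 other hypoxia pathway genes, 23 reached 10 CPM, with a median ratio of 1.86. In mesenchymal cells 8 of them were at least 2-fold higher and 2 at least 2-fold lower. Of all genes, 7.56% were higher and 11.7% lower, so the count of lower ones is near the share of all genes. The highest ratios belonged to the collagen cross-linking enzymes Loxl2 at 40.4 (31.5 to 52.4) and Lox at 37.8 (32.7 to 43.8), and to the collagen lysyl hydroxylase Plod2 at 8.01, and Plod1, another lysyl hydroxylase, had 2.52. Fam162a at 2.76, Siah2 at 2.18 and Vhl at 2.09 were also higher, and Bhlhe41 at 0.297 and Hif1an at 0.312 were the lower ones. Collagen genes were part of the mesenchymal gate. Of 45 other genes of glucose metabolism, 23 reached 10 CPM. At the 2-fold limit 1 of these was higher and 3 were lower, near the shares of all genes. Bsg, which encodes the chaperone of the lactate carriers, was 2.44-fold (2.38 to 2.51) higher, and G6pdx at 0.363, Pdp1 at 0.337 and Rpia at 0.237 were lower.

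Dividing and non-dividing epithelial cells differed little. The targets summed to 808.1 CPM in dividing and 928.6 CPM in non-dividing cells, a ratio of 0.870 (0.844 to 0.897), and the enzymes to 4628 and 4250 CPM, a ratio of 1.09 (1.07 to 1.10). None of the 29 genes passed 2-fold, where 3.77% of all genes were higher and 1.26% lower. Pfkfb3, which makes the activator of phosphofructokinase, came closest with a ratio of 0.518 (0.366 to 0.717). Ndrg1 at 0.662, Vegfa at 0.691 and Bnip3 at 0.723 were lower in dividing cells, and Gapdh at 1.20, Tpi1 at 1.20 and Ldha at 1.20 higher. Of the enzymes, Aldoa at 0.781 (0.740 to 0.825) and Gpi1 at 0.867 (0.770 to 0.974) stood lower. Respiration genes had a ratio of 1.10.

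Within the 8964 non-dividing epithelial cells, 5 ranges of high cells were set by other genes, each the smallest whole score held by at most 10% of these cells. Cells high in the secretory genes Ltf and Lcn2 had 1092 CPM of targets against 912.7 CPM in the other cells, a ratio of 1.20 (1.15 to 1.25). Cells high in Ly6d had 1072 against 914.9 CPM, a ratio of 1.17 (1.12 to 1.22). In each of these ranges 2 of the 29 genes were at least 2-fold higher. Ankrd37 was 2.38-fold (1.85 to 3.04) higher in the secretory and 2.24-fold (1.73 to 2.87) higher in the Ly6d range, and Egln3 2.55-fold (1.93 to 3.31) and 2.82-fold (2.16 to 3.64). Of all genes, 1.81% were higher and 2.49% lower in the secretory range, and 1.36% and 3.45% in the Ly6d range. The immediate-early genes, which respond within minutes to handling and other stimuli, were also higher in these cells, with summed ratios of 1.57 and 1.49, and median mitochondrial shares were 3.71% and 3.46% against 2.76% in the whole gate. Their part in the result was not tested.

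Cells high in chemokines (Cxcl1, Cxcl2, Cxcl5, Ppbp, Ccl2, Ccl20) showed more enzyme RNA without a higher sum of target RNA. The enzymes summed to 4836 CPM against 4168 CPM, a ratio of 1.16 (1.14 to 1.18), and the targets to 894.2 against 933.4 CPM, a ratio of 0.958 (0.922 to 0.995). The sum hides a split among targets with intervals that excluded 1. P4ha2 at 1.39, Ankrd37 at 1.38, Vegfa at 1.31 and Ndrg1 at 1.20 were higher. Bnip3l at 0.896, Bnip3 at 0.797, Ddit4 at 0.755 and P4ha1 at 0.722 were lower. Ldha was at 1186 against 892.3 CPM, a ratio of 1.33 (1.28 to 1.37). Pfkp was lower, at 9.05 against 18.8 CPM, a ratio of 0.483 (0.324 to 0.695), and was the only gene of the 29 past 2-fold there, where 0.827% of all genes were higher and 1.51% lower. These cells were also the deepest of the 5 ranges, with a median of 3782 UMIs. In cells high in Wfdc18, or in Krt7 and the laminin-332 chains, 0 of the 29 passed 2-fold in either direction. Of all genes, 0.118% were higher and 1.83% lower in the former and 0.378% and 0.615% in the latter. The ranges of the 5 comparisons may share cells.

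**Figure D2:**
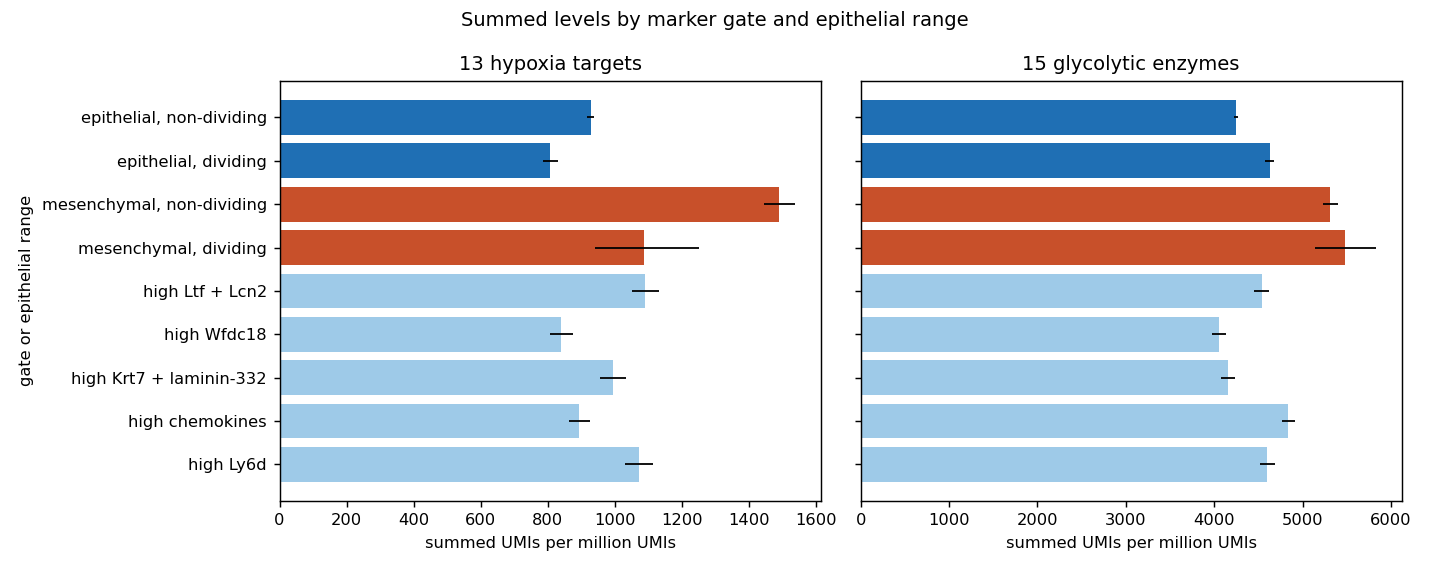
Summed level of 13 hypoxia targets (left) and 15 glycolytic enzymes (right) in CPM, in the 4 gates and the 5 ranges of high non-dividing epithelial cells. Bars start at 0 and carry exact 95% Poisson intervals. Non-dividing mesenchymal cells have the highest target level (1492 CPM), and the chemokine range the highest enzyme level among the epithelial ranges (4836 CPM).

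The question of the same cells was asked within a gate, so that cells of different gates were not set against each other. An epithelial cell could still hold some mesenchymal marker UMIs, and doublets were not removed. The part of such RNA in the result was not tested. In non-dividing epithelial cells, 645 cells with at least 4 target UMIs (7.20% of the gate) were called hypoxia-high, and 5425 cells with at most 1 hypoxia-low. At the score of 4 there were 365 cells and at 3, just outside, 902. Hypoxia-high cells held 9.16 enzyme UMIs per cell and hypoxia-low cells 6.04, a ratio of 1.52 (1.47 to 1.56). The genes of respiration and the TCA cycle went slightly the other way, with 18.9 and 20.2 UMIs per cell, a ratio of 0.933 (0.915 to 0.95). All genes share the fixed total of 1500 UMIs per cell, and ribosomal protein genes took 187.0 UMIs in high and 209.0 in low cells.

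Enzyme RNA climbed slowly over low scores and faster over scores of 4 or more. Cells with 0, 1, 2 and 3 target UMIs held 5.96, 6.11, 6.31 and 6.61 enzyme UMIs. Cells with 4 held 7.50 (7.22 to 7.79) and with 5 held 9.17 (8.66 to 9.70). Those with 6 held 10.6 (9.81 to 11.5) and with 7 held 11.1 (9.97 to 12.3), intervals that overlap. The 58 cells with 8 or more, 0.647% of the gate, held 16.9 (15.9 to 18). Respiration genes went from 20.3 UMIs at a score of 0 to 16.6 (15.6 to 17.7) in these 58 cells. The fall was not particular to them, as ribosomal protein genes went from 211.5 to 166.2 (162.9 to 169.5) UMIs. Over all cells of the gate the rank correlation between the scores was weak, with a Spearman rho of 0.114 over 8964 cells, which share depth and the fixed total. Hypoxia-high cells had been shallower before thinning, with a median of 2571 against 3089 UMIs, and their median mitochondrial shares were 2.75% and 2.76%.

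**Figure D3:**
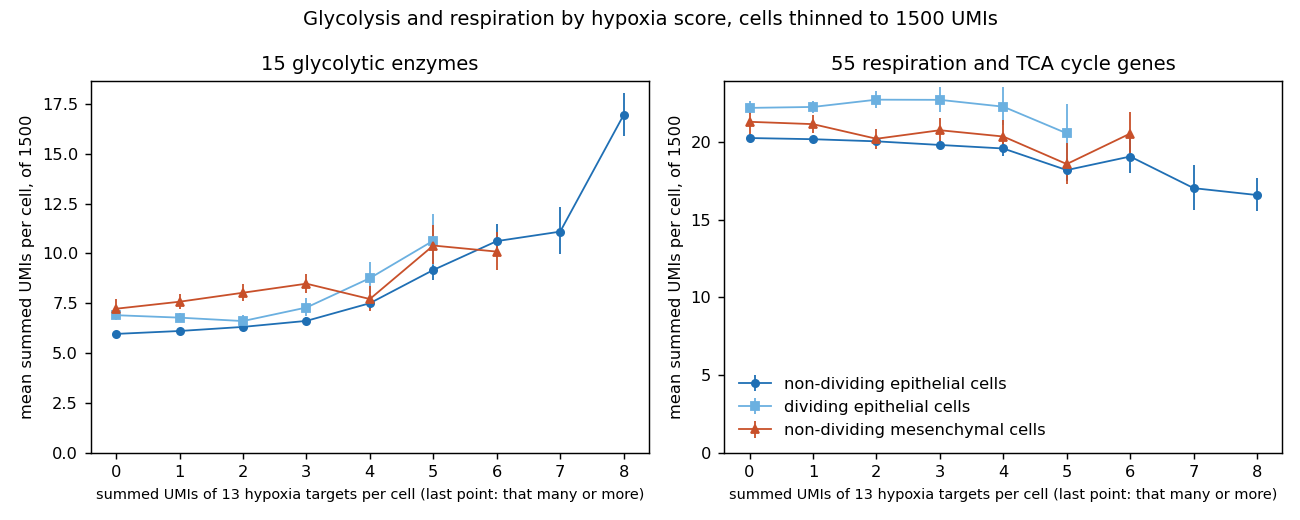
Mean summed UMIs per cell, of 1500, of 15 glycolytic enzymes (left) and 55 respiration and TCA cycle genes (right) by the summed UMIs of 13 hypoxia targets, in 3 gates. Bars are exact 95% Poisson intervals and the last point of each line holds that score or more. In non-dividing epithelial cells the enzymes go from 5.96 to 16.9 UMIs and the respiration genes from 20.3 to 16.6.

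Most of the group was higher in hypoxia-high cells. Each target was compared with the score formed without it, so that no gene chose its own cells. Of the 29 genes compared, 24 were at least 1.5-fold higher and 0 lower, against 4.59% higher and 4.56% lower of all 8461 genes. Their median ratio was 1.89, and that of all genes 1.02. Among genes of at least 100 CPM, where counts are less sparse, 8 of 12 were higher against 1.18% of 1689 genes. With a score held by at most 20% of the gate as the limit, 13 of the 29 passed 1.5-fold in either direction, against 2.98% of all genes. A limit of 2-fold was passed by 11, against 1.91%.

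Among the targets, 11 of 12 passed. Egln3, the oxygen sensor that is itself induced by HIF, was at 80.0 CPM (62.9 to 100.3) in high and 7.45 CPM (5.70 to 9.57) in low cells, a ratio of 10.7 (7.56 to 15.3). Ndrg1 was at 195.7 and 35.4 CPM, a ratio of 5.52 (4.54 to 6.70). Bnip3 was at 310.7 and 67.4 CPM, a ratio of 4.61 (3.94 to 5.38).

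Ankrd37 followed at 3.64 (2.50 to 5.22), Vegfa at 2.78 (2.17 to 3.54), Egln1 at 2.19 (1.80 to 2.66) and Higd1a at 2.06 (1.74 to 2.41). P4ha1 at 1.89, Adm at 1.74, Bnip3l at 1.74 and P4ha2 at 1.64 passed by less. Ddit4 stood at 172.2 CPM in high and 157.1 CPM in low cells, a ratio of 1.10 (0.9 to 1.32), and was the target that did not pass. It is also induced by glucocorticoids and by the integrated stress response.

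Genes of glucose entry followed the targets. Slc2a1, which encodes the transporter GLUT1, was at 82.7 CPM in high and 33.3 CPM in low cells, a ratio of 2.48 (1.91 to 3.20). Pfkfb3 was at 30.0 and 9.83 CPM, a ratio of 3.05 (1.92 to 4.72). Of the enzymes, 9 of 13 passed 1.5-fold: Pfkl at 2.40 (1.49 to 3.75), Tpi1 at 2.03 (1.80 to 2.27), Pfkp at 1.99, Pgk1 at 1.90 (1.73 to 2.08), Hk2 at 1.76, Gpi1 at 1.74, Pgam1 at 1.56, Ldha at 1.52 (1.43 to 1.61) and Aldoa, just inside, at 1.5 (1.36 to 1.66). Gapdh, just outside, had 1.37 (1.30 to 1.45), Eno1 1.29, Pkm 1.29 and Hk1, the constitutive hexokinase, 1.08 (0.653 to 1.71).

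At the exit of the pathway, Pdk1, the pyruvate dehydrogenase kinase, had a ratio of 1.96 (1.35 to 2.80). Slc16a3, below 10 CPM in all kept cells, had 14 UMIs in high and 34 in low cells, a ratio of 3.46 (1.72 to 6.63). Slc16a1 had 0.948 (0.394 to 1.97). Hif1a itself had a ratio of 1.55 (1.36 to 1.77).

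**Figure D4:**
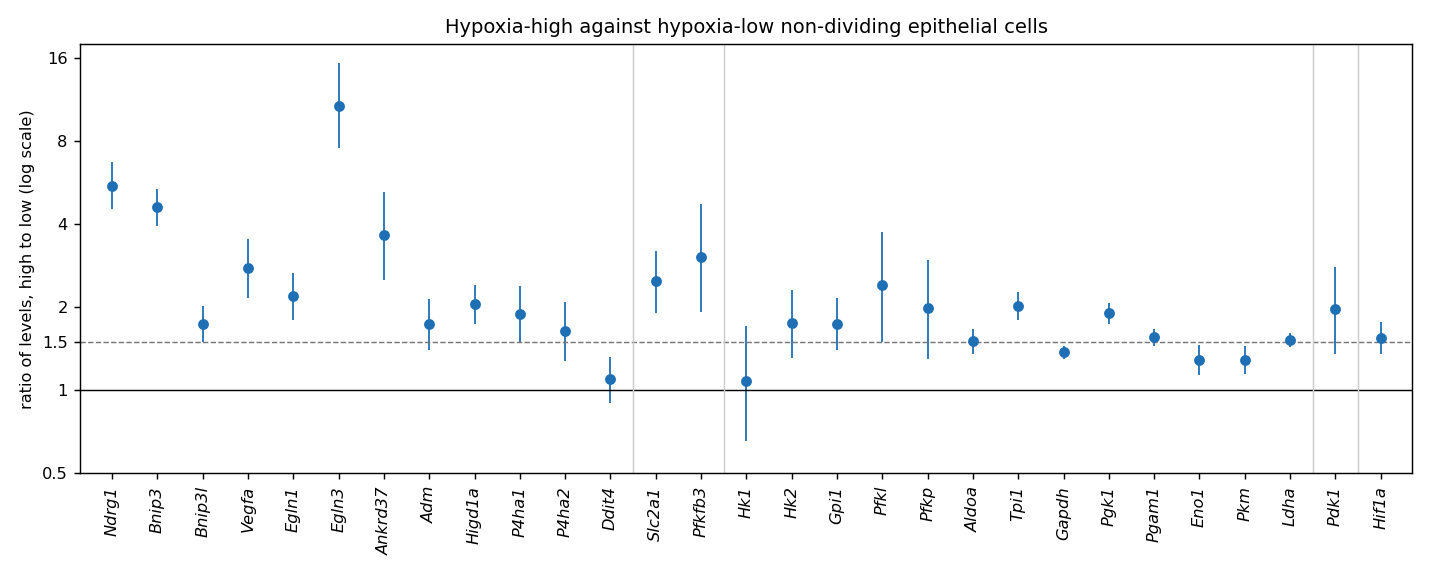
Ratio of levels between hypoxia-high and hypoxia-low non-dividing epithelial cells (log axis) for the 29 genes of at least 10 CPM, in the order of roles. Bars are exact 95% binomial intervals of the ratio, the solid line is 1 and the dashed line 1.5. Egln3, Ndrg1, Bnip3 and Ankrd37 stand highest, and Ddit4 and Hk1 have intervals that reach 1.

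The 58 cells with 8 or more target UMIs held more RNA of most enzymes, read here as a description of few cells. Against hypoxia-low cells, Pfkfb3 was 9.35-fold (3.90 to 19.3), Pfkp 7.85-fold (3.83 to 14.5) and Slc2a1 6.56-fold (3.89 to 10.4) higher. Pgk1 was at 2.31 against 0.480 UMIs per cell, a ratio of 4.81 (4.02 to 5.73), and Tpi1 had a ratio of 4.52 (3.52 to 5.72). Gapdh at 2.55 and Ldha at 2.10 differed less, and Hk1, with 2 UMIs in these cells, had a ratio of 1.15 (0.138 to 4.21). Slc16a3 had 5 UMIs in these cells, a ratio of 13.8 (4.20 to 35.4).

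Outside the group, Ero1l, an endoplasmic reticulum oxidase gene, was at 1.84 against 0.05 UMIs per cell, a ratio of 36.9 (29.2 to 46.4), higher than for any of the enzymes. These cells had a median of 2172 UMIs before thinning. In all, 12 of them, 20.7% (11.2% to 33.4%), were in the Ltf and Lcn2 range, which held 8.87% of the gate. The Ly6d range held 10 of them, 17.2% (8.59% to 29.4%), an interval that includes its 9.15% of the gate. The intervals of the other 3 ranges include theirs as well.

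The same question was asked from the side of the enzymes, on the same cells and so not as an independent result. Non-dividing epithelial cells with at least 12 enzyme UMIs, 689 cells, were called glycolysis-high, and those with at most 6 glycolysis-low. The targets were 2.18-fold (2.07 to 2.30) higher in them. Of the 12 targets compared, 10 passed 1.5-fold, where 3.69% of all genes were higher and 7.73% lower. Egln3 at 11.4 (7.82 to 16.7), Ndrg1 at 5.47, Bnip3 at 5.21 and Ankrd37 at 4.50 led again, and Bnip3l at 1.43 and Ddit4 at 1.05 did not pass. Respiration genes had a ratio of 1.08 (1.06 to 1.10) here, so they stood slightly higher in glycolysis-high and slightly lower in hypoxia-high cells.

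Most high cells were high in only 1 of the scores. Of the 645 hypoxia-high cells, 176 were also glycolysis-high, a share of 27.3% (23.9% to 30.9%), against 7.69% (7.14% to 8.26%) of the gate and 5.25% (4.67% to 5.88%) of hypoxia-low cells. Hypoxia-high cells made up 12.5% (10.2% to 15%) of the Ltf and Lcn2 range, 10.6% (8.59% to 12.9%) of the Ly6d range and 5.26% (3.88% to 6.96%) of the Wfdc18 range. Glycolysis-high cells made up 12.3% (10.2% to 14.7%) of the chemokine range, 11.2% (9.09% to 13.6%) of the Ltf and Lcn2 range and 10.5% (8.47% to 12.8%) of the Ly6d range, and all 3 intervals lie above the 7.69% of the gate. In the chemokine range hypoxia-high cells were 6.51% (4.97% to 8.36%), an interval that includes the 7.20% of the gate.

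Single targets differed in how well they marked cells with more enzyme RNA. Non-dividing epithelial cells with an Egln3 UMI, 153 cells, held 9.97 enzyme UMIs against 6.32 in cells without, a ratio of 1.58 (1.5 to 1.66). The ratios were 1.32 (1.28 to 1.36) for Ndrg1, 1.32 (1.26 to 1.38) for Ankrd37 and 1.31 (1.28 to 1.34) for Bnip3. Higd1a had 1.18, P4ha1 1.14, Vegfa 1.11 and Bnip3l 1.06. Ddit4, found in 20.05% of these cells, had 0.980 (0.960 to 1.00). In pairs of genes over the same cells, the highest Pearson correlations were Ndrg1 with Bnip3 at 0.214, Bnip3 with Egln3 at 0.207 and Ndrg1 with Egln3 at 0.193. Across roles they were Bnip3 with Pgk1 at 0.153 and Ndrg1 with Pgk1 at 0.138, and among enzymes Gapdh with Ldha at 0.152. Medians were 0.0305 over the 78 pairs of targets, 0.0173 over the 105 pairs of enzymes and 0.0185 over the 195 pairs between them.

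**Figure D5:**
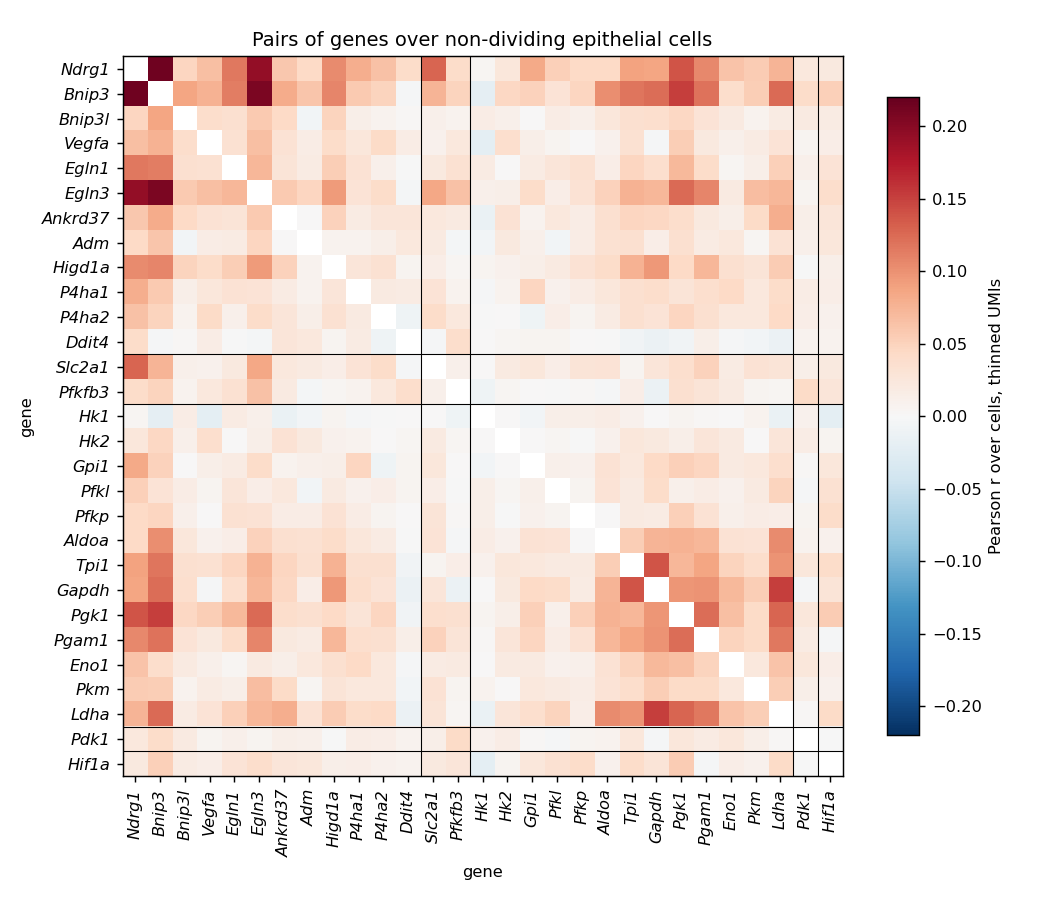
Pearson correlation of thinned UMIs over 8964 non-dividing epithelial cells for each pair of the 29 genes of at least 10 CPM, with black lines between roles and the diagonal left blank. Colour runs from blue (below 0) to red (above 0). Ndrg1, Bnip3 and Egln3 form the darkest block (0.193 to 0.214), their columns stay coloured across Tpi1, Gapdh, Pgk1, Pgam1 and Ldha, and the row of Ddit4 is nearly white.

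Other genes that followed the hypoxia score in non-dividing epithelial cells were ranked by the same ratio among 6273 genes of at least 20 CPM. Ero1l led with 222.2 against 33.3 CPM, a ratio of 6.67 (5.55 to 8.01), followed by the cornified envelope gene Sprr2d at 4.15 (3.25 to 5.26) and Chsy3 at 3.10 (1.78 to 5.19). Il13ra2 at 2.94 and Col1a1 at 2.93 rest on 7 and 8 UMIs in the high cells. Both were at 2.46 and 2.83 CPM in the low cells and passed 20 CPM through cells outside these groups, and Col1a1 is a gene of the mesenchymal gate, so their place in the order is not read. Chsy3, with 21 UMIs or 21.7 CPM in the high cells, was also below 20 CPM in the low cells. At 23.8 CPM in all kept cells it too passed that limit through cells outside these groups, so its place is not read either. Dusp1 at 2.79, Fam162a at 2.72 (2.48 to 2.97), Ltf at 2.60, the stress keratin Krt16 at 2.53 and Bcl2l11 at 2.42 made up the 10. Of 23 other hypoxia pathway genes of at least 10 CPM, 9 passed 1.5-fold and 0 were lower, against 4.59% and 4.56% of all genes. Besides Ero1l and Fam162a, the highest were Mxi1 at 1.73, Gys1 at 1.67, Siah2 at 1.57, Plod2 at 1.56 and Vhl at 1.56. Of the 23 other glucose genes, Bsg at 1.76 (1.67 to 1.86) and Pgam5 at 1.57 were higher and G6pdx, the entry to the pentose phosphate pathway, was lower at 0.626 (0.423 to 0.897). Immediate-early genes summed to a ratio of 1.30 (1.25 to 1.36), with Fos highest at 3.47. Of the 11 compared, 4 were at least 1.5-fold higher and 0 lower. The genes of the integrated stress response summed to 1.14 (1.07 to 1.23), with Atf3 highest at 2.49. Of the 12 compared, 1 was higher and 1 lower, with a median ratio of 1.07 and a lowest of 0.449. The shares of all genes were again 4.59% and 4.56%. The part of both lists in the result was not tested. Leaving out the cells of the Ltf and Lcn2 and the Ly6d ranges gave an enzyme ratio of 1.45.

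In mesenchymal cells the comparison rested on far fewer cells. Of 829 non-dividing cells, 44 with at least 6 target UMIs were hypoxia-high and 533 with at most 2 hypoxia-low. They held 10.1 and 7.66 enzyme UMIs, a ratio of 1.32 (1.19 to 1.45). Of the 29 genes, 14 were at least 1.5-fold higher and 2 lower, but at this depth 20.5% of all genes were higher and 14% lower. The lower ones were Pfkp at 0.319 (0.00787 to 1.89) and Pdk1 at 0.551 (0.0133 to 3.41), each with 1 UMI in the high cells, where epithelial cells had 1.99 and 1.96. Of the 13 enzymes, 4 were higher and 1 lower, with a median ratio of 1.25. Of the 12 genes of at least 100 CPM, 3 passed (Higd1a, Pgam1 and Eno1), against 6.63% of 1689 genes. With 2000 to 4000 UMIs per cell as an added limit, 10 of the 29 passed in either direction, in place of 16, against 34.5% of all genes. With high cells up to 20% of the gate 10 also passed, against 28.5%.

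P4ha1 had 406.8 CPM in high and 200.8 CPM in low mesenchymal cells, a ratio of 2.03 (1.38 to 2.91), Bnip3 a ratio of 2.27 (1.42 to 3.52) and Ankrd37 of 2.35 (1.35 to 3.93). Slc2a1 had 2.95 (1.25 to 6.22). Pgk1 at 1.14 (0.726 to 1.72) and Tpi1 at 1.25 (0.819 to 1.83), which followed the score in epithelial cells, had intervals that include 1 here. Whether the gates differ in this was not tested. Of the 44 high cells, 11 were also glycolysis-high, 25.0% (13.2% to 40.3%), against 8.32% of the gate. Seen from the enzymes, 69 mesenchymal cells with at least 14 enzyme UMIs had 1.63-fold (1.40 to 1.88) more target RNA than those with at most 8. There 13 of the 29 genes were higher and 1 lower, against 15.4% and 19.1% of all genes. Bnip3 at 2.32 (1.44 to 3.61) and Ankrd37 at 2.55 (1.47 to 4.26) were among the higher ones, while Ndrg1 had 1.10 (0.525 to 2.08).

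Dividing epithelial cells, and cells with too few gate markers, also had more enzyme RNA at high target scores. Dividing epithelial cells held 6.90, 6.78 and 6.61 enzyme UMIs at target scores of 0, 1 and 2, without a rise. They held 7.28 at 3, 8.76 at 4 and 10.6 (9.40 to 12.0) in the 25 cells with 5 or more. Mesenchymal cells went from 7.22 at 0 to 10.1 (9.17 to 11.1) at 6 or more. Cells outside the gates went from 5.09 to 12.8 (11.2 to 14.5) in the 18 cells with 7 or more. The rank correlations were 0.0446 over 1601 dividing epithelial, 0.166 over 829 mesenchymal and 0.264 over 1524 ungated cells.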

How the data were processed

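The deposited matrix holds UMI counts of 32287 feature IDs in 18116 barcodes, made by the authors with CellRanger 8.0.1 per the file headers. The submitters' processing notes name mm10, Cell Ranger and Scanpy 1.8.2. The annotation is likewise not named there. The labels describe 3 libraries without tying the reads to one of them, and the matrix, with 47720034 UMIs, was taken as a single pooled sample. No barcode was repeated. The lowest barcode total was 500 UMIs.

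The genes of the group, the marker lists and the limits were chosen with earlier results of these data known. Barcodes were kept as the report states. Scrublet in scanpy 1.11.5 called 1 doublet, too few for a working call, so doublets were not removed. Gene positions came from GENCODE M21, which held 32158 of the IDs. Thinning to 1500 UMIs, gates and scores were computed in Python 3.11.15 with numpy 2.4.6 and scipy 1.17.1. High cells were those at the smallest whole score held by at most 10% of a gate, and low cells those at or below its median. Between gates a gene counted at 2-fold and between high and low cells at 1.5-fold, among genes of at least 10 CPM. Ratios between gates and ranges use all UMIs of the gated cells, and ratios between high and low cells the thinned UMIs. Intervals are exact Poisson for levels, exact binomial for ratios and Clopper-Pearson for shares, at 95%. PCR copies are removed by the UMIs, and the intervals cover counting error only. The steps were tested on simulated data. The named genes are all 35, the 10 others with the highest ratio to the hypoxia score among genes of at least 20 CPM, up to 8 genes past the limit in each pathway list, and markers. Fos, Atf3, Eno1b and the forms restricted to testis or muscle were named after their values were seen. The alternatives tried were other cell filters, doublet removal, totals without the added GFP and Scar sequences, other thinning depths and seeds, gates on raw UMIs, other limits and another score. Added after seeing the data were the sets without dividing cells, of 2000 to 4000 UMIs, of at least 100 CPM and without 2 epithelial ranges.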

Additional observations from a re-analysis of the deposited data

How the results depend on the processing

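Of 139 ratios of single genes, none of the 90 whose counting interval excluded 1 crossed 1 under an alternative run. Of those whose interval included 1, 32 crossed it, 19 of them between hypoxia-high and hypoxia-low mesenchymal cells. There Pfkp was at 0.319, and at 1.73 without GFP and Scar UMIs in the totals, and Pdk1 at 0.551 and 3.31. For 14 results of comparisons, 95 of 127 alternative values stayed within the counting interval or 1.5 times the count, and 32 moved. For 174 values of single genes, 128 of 1452 moved. No paired analysis was possible because the data are 1 pooled matrix and no groups with replicate numbers were compared.

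Hypoxia target and enzyme levels were 962.8 and 4413 CPM with at least 1000 genes and 2000 UMIs, and 1006 and 4486 CPM without GFP and Scar UMIs. The enzyme level was 4400.5 CPM with at most 10% mitochondrial UMIs. Between mesenchymal and epithelial cells the enzyme ratio was 1.21 at 1000 UMIs, and 20 genes passed 1.5-fold and 3 passed 3-fold, against 38.5% and 9.83% of all genes. Between dividing and non-dividing cells the target ratio was 0.839 without the 10% of cells of highest doublet score. The enzyme ratio was 1.07 at 1000 UMIs, 1.11 at 2000 UMIs and 1.12 with gates on raw UMIs. There 1 gene passed 2-fold under the stricter cell filter (5.11% of all genes) and 1 without the cells of highest doublet score (5.93%). With no minimum level 1 passed (6.23%), and with the minimum 2 passed 1.5-fold (14%).

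Between hypoxia-high and hypoxia-low epithelial cells the enzyme ratio was 1.43 under the stricter filter, 1.44 without GFP and Scar, 1.41 at 1000 UMIs, 1.67 with the score without Bnip3l, 1.27 with high cells up to 20% and 1.45 without the Ltf, Lcn2 and Ly6d ranges. The count of genes was 13 with high cells up to 20% (2.98% of all genes), 11 at 2-fold (1.91%) and 8 at 100 CPM (1.24%). In mesenchymal cells the ratio was 1.51 at 1000 UMIs, 1.47 at 2000 UMIs and 1.18 with high cells up to 20%. The count was 10 with high cells up to 20% (28.5%), 7 at 2-fold (17%), 10 in cells of 2000 to 4000 UMIs (34.5%) and 3 at 100 CPM (19.2%). The cause of these moves was not tested. At 1500 UMIs most cells held 0 or 1 target UMI, so a low score does not show that a cell lacks the RNA.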
